A study of Arabidopsis thaliana with 45 samples.

Results

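10 loci of the gibberellin and light pathway of seed germination are described here, out of 27587 loci in the deposited Arabidopsis thaliana table. They were chosen by name and locus: the DELLA genes RGL1 (AT1G66350), RGL2 (AT3G03450), RGL3 (AT5G17490), RGA1 (AT2G01570) and GAI (AT1G14920), the gibberellin receptor genes GID1A (AT3G05120), GID1B (AT3G63010) and GID1C (AT5G27320), the F-box gene SLY1 (AT4G24210) and the transcription factor gene PIL5 (AT2G20180). All 10 passed the filter on low counts. RNA was sequenced from entire seeds of the Col0 accession in 45 libraries that form 16 groups of 4 genotypes and 4 treatments. By their labels, cyp seeds are mutated in CYP79B2 and CYP79B3, myb seeds in MYB28 and MYB29, qko seeds in all 4 of these genes, and WT seeds in none. The CYP79B enzymes work at the start of indole glucosinolate synthesis, and both MYB factors activate genes for aliphatic glucosinolates. Seeds of each genotype were imbibed for 6 h in 10 mM KNO3, in 8 µM KSCN or in water, or were taken dry. Sterilization of the seed surface came before these steps. The sources used here do not give the mutant alleles or the seed lots. Of the 16 groups, 13 held 3 libraries, and the cyp seeds in KSCN, the dry myb seeds and the myb seeds in KNO3 held 2. Nothing states whether replicates came from separate plants, so p-values measure only the spread between these samples, which may be technical.

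Gibberellins are hormones that promote germination. DELLA proteins are nuclear repressors of gibberellin responses. When a GID1 receptor binds gibberellin it takes hold of a DELLA protein, and SLY1, the substrate-binding part of an SCF ubiquitin ligase, then marks that DELLA for breakdown. RGL2 is the DELLA best known for holding back germination in Arabidopsis seeds, while RGA1 and GAI are best known for holding back stem growth. PIL5, also called PIF1, is a bHLH factor that represses germination in the dark and is degraded after red light acts on phytochromes; it is known to activate the genes of RGA1 and GAI. Much of this pathway is set at the level of protein stability, which transcript counts do not measure.

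Library totals were 18097331 to 22910834 estimated counts, and the second lowest was 21363761. The lowest was qko replicate 7 in KNO3. Levels are given as CPM, counts scaled to library size by trimmed means, and ± after a log2 change is its SE. The targeted genes did not follow their labels: CYP79B2 had 6 to 31 counts per library in seeds labelled cyp and 0 to 3 in WT, and CYP79B3 had 10 to 124 in cyp and 0 to 5 in WT. In seeds labelled qko, CYP79B2 had 0 to 5 counts and CYP79B3 3 to 38. MYB28 had 0 counts in all 45 libraries, and MYB29 had 0 to 6 in myb, 0 to 14 in qko and 0 in WT. Every direction below is therefore that of libraries labelled cyp, myb or qko. The imbibed qko replicate 7 libraries stood apart from their group (mean chi-square per locus 62.2 to 80.3). Imbibed qko replicates 4 and 6 were at 6.98 to 12.3 from each other. In KNO3, cyp replicates 6 and 8 stood apart from each other too (98.6). All other pairs within a group lay between 3.84 and 32.8. Entire seeds were checked with marker lists: 9 storage protein and oil body genes summed to 118210 to 324720 CPM in dry seeds. A list of 5 seed coat genes summed to 6.47 to 12.2 CPM in dry seeds, and a list of 4 leaf genes to 27.5 to 80.4 CPM. Of these lists, the seed coat genes TT12 and TT8 and the leaf gene LHCB1.1 had at most 2, 3 and 8 counts and were not tested.

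The genes lie on all 5 chromosomes of the TAIR10.1 assembly. RGL1 (chr1:24748105-24750186, plus strand), GAI (chr1:5148982-5151415, plus strand), RGL2 (chr3:819337-821652, minus strand), RGL3 (chr5:5763989-5766246, minus strand) and RGA1 (chr2:255247-257568, minus strand) have 1 exon each, as has SLY1 (chr4:12563279-12564482, plus strand). GID1A (chr3:1430363-1432844, plus strand), GID1B (chr3:23289243-23291486, plus strand) and GID1C (chr5:9628990-9631291, plus strand) have 2 exons. PIL5 (chr2:8704024-8707009, minus strand) has 9 exons in its longest transcript. The build of the table's own annotation is not given, and these positions come from the reference by locus name. PIL5 is the only member with more than 1 transcript in the table, 8 of which 7 had counts, and all were summed. Little sequence was shared with other loci: GID1A and GID1C had 5 shared stretches of 31 bases each, and PIL5 had 77 (3.39% of its own) with AT2G20170, a gene on the other strand at its 3' end. AT2G20170 had counts in 1 of 45 libraries, 5 at most, and whether counting used strand is not given.

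The 300 bases before the annotated start are shown for the DELLA gene whose transcript was highest in dry seeds, RGL3 (chr5:5766247-5766546, minus strand), and for the most abundant receptor gene, GID1A (chr3:1430063-1430362, plus strand), since the transcripts of both were lower in imbibed seeds. RGL2 (chr3:821653-821952, minus strand), a member that moved the other way, is shown beside them. Sequences are from the TAIR10.1 reference, 5' to 3' on the strand of the gene, and capitals mark any match on either strand to the gibberellin response element (GARE, TAACAAA), the RY core (CATGCA), the G-box (CACGTG) or the PBE-box (CACATG).
RGL3: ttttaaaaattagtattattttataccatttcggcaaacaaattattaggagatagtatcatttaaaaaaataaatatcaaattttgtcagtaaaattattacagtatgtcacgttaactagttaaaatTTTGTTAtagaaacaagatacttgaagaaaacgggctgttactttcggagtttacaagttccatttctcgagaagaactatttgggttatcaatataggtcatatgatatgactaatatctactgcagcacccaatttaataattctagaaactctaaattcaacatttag
GID1A: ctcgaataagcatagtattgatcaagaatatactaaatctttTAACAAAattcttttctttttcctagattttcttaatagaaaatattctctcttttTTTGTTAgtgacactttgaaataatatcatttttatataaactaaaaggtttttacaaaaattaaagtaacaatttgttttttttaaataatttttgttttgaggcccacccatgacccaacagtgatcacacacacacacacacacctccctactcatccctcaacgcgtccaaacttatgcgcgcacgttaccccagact
RGL2: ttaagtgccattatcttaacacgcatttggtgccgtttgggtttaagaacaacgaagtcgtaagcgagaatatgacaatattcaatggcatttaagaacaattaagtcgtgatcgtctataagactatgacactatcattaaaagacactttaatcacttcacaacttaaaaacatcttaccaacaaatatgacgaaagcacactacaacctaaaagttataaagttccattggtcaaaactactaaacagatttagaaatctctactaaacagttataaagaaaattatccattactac
The GARE letters occurred in 2 places in the GID1A window (258 and 202 bases before the start), and once in those of RGL3 and SLY1, against 19.2% of 27391 promoter windows of the same length. The RY letters stood once in the window of GAI (background 10.3%). The PBE-box stood once in that of GID1B (background 13.0%), and the G-box, a class of element PIL5 binds, in none of the 9 windows read (background 7.10%). Sites further than 300 bases before the start were not read. Matches of different motifs did not overlap. These are matches of letters only.

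Per kilobase of transcript, GID1A was the most abundant of the 10 in dry WT seeds at 102 ± 13.0 CPM per kb (SD, n = 3). RGL3 followed at 48.0 ± 3.05 and PIL5 at 31.4 ± 2.86 CPM per kb. GID1C, GAI and SLY1 came next at 18.7 ± 0.218, 12.3 ± 0.841 and 7.74 ± 0.943 CPM per kb. Each of these levels was separate from the next, whereas RGL2 (4.35 ± 0.745) and RGA1 (3.32 ± 0.337) overlapped. GID1B and RGL1 were near the limit of detection, with 2 to 4 and 1 counts per dry WT library. In WT seeds imbibed in water the order was another one. PIL5 led at 110.1 ± 3.53 CPM per kb. GID1A (38.1 ± 2.11), RGL2 (36.0 ± 2.48), RGA1 (35.9 ± 2.50) and GAI (34.7 ± 0.987) followed with overlapping levels, then RGL3 (18.4 ± 1.80) and SLY1 (16.8 ± 1.08), which overlapped too, and GID1C at 7.33 ± 0.135 CPM per kb. In water-imbibed seeds labelled cyp, PIL5 (148 ± 18.4) and RGL2 (120.1 ± 6.30) led. Their levels barely overlapped, with the lowest PIL5 library at 127.3 and the highest RGL2 library at 127.4. This depends on dividing all PIL5 counts by its longest transcript. All 4 abundant DELLA genes stood above GID1A (23.1 ± 1.60 CPM per kb).

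**Figure D1:**
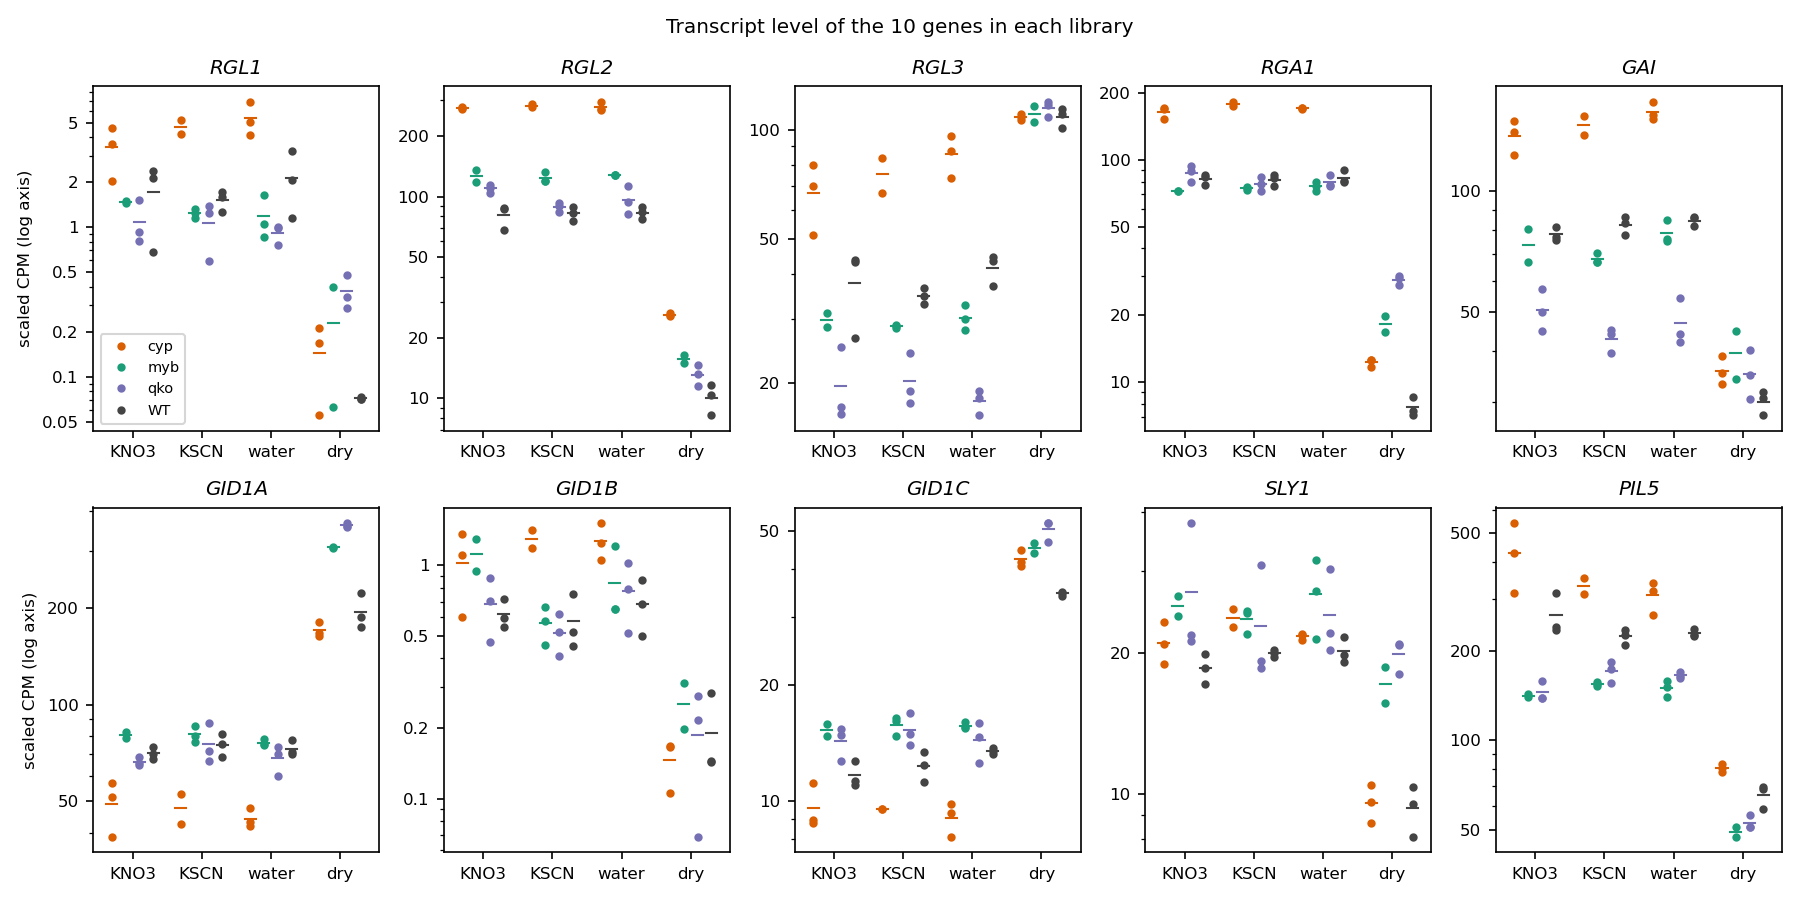
Scaled CPM (log axis) of the 10 genes in each library, by treatment (x axis) and labelled genotype (colour), with group means as lines. RGL3, GID1A and GID1C are highest in dry seeds (not RGL3 in cyp under total-count scaling). The other 7 genes are higher in imbibed seeds, apart from overlaps in qko. There the dry SLY1 libraries overlap those in water and in KSCN, and the dry GAI libraries overlap those in KSCN. KNO3, KSCN and water lie close together within a genotype.

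Comparison of water-imbibed with dry seeds asks what the first hours of imbibition do to these transcripts. In WT, 7 of the 10 were higher in water (GAI, RGA1, RGL1, RGL2, SLY1, GID1B and PIL5) and 3 were lower (RGL3, GID1A and GID1C), at an adjusted p under 0.05. The background over all 18066 loci tested was 70.6% of loci called, 37.1% higher and 33.5% lower, so a call alone sets no member apart. Fewer cells of a type and less RNA per cell cannot be told apart in RNA of entire seeds. RGA1 had 90.0, 80.6 and 79.4 CPM in water-imbibed WT seeds and 7.44, 7.10 and 8.60 in dry ones (a log2 change of 3.43 ± 0.09, adjusted p = 6.7e-26). RGL2 had 83.5, 88.9 and 77.4 CPM in water and 11.7, 8.24 and 10.3 dry (a log2 change of 3.05 ± 0.12, adjusted p = 1.2e-21). GAI had 85.8, 86.1 and 81.8 CPM in water and 31.8, 27.8 and 30.6 dry (a log2 change of 1.49 ± 0.11, adjusted p = 3.9e-14). In all 3 every imbibed library stood above every dry one. Here and below, the share of all loci without overlap is not given, so separation of groups alone sets no member apart. RGL1, a DELLA gene of low level here, had 155 counts over 3 imbibed libraries and 3 over 3 dry ones. Scaled by trimmed means, the ratio was 30.0 (95% interval 10.1 to 147). RGL3, a DELLA gene also known from jasmonate responses, went the other way: 43.3, 44.6 and 37.0 CPM in water and 114, 101 and 110.2 dry (a log2 change of -1.38 ± 0.16, adjusted p = 8.6e-10).

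Among the receptors, GID1A had 71.0, 70.2 and 77.6 CPM in water-imbibed WT seeds and 187, 223 and 175 in dry ones (a log2 change of -1.42 ± 0.11, adjusted p = 1.5e-13). GID1C had 13.3, 13.8 and 13.5 CPM in water and 34.6, 34.1 and 34.9 dry (a log2 change of -1.35 ± 0.10, adjusted p = 1.3e-14). Both fell without overlap between groups. GID1B, which binds gibberellin more tightly than its relatives, was detected at few counts: 49 counts over 3 imbibed libraries and 8 over 3 dry ones. Its ratio, scaled in the same way, was 3.56 (95% interval 1.67 to 8.69). The intervals of these 2 count ratios cover counting error only, and the ratios depend on the scaling. SLY1 had 19.2, 21.7 and 19.8 CPM in water and 9.51, 8.10 and 10.3 dry (a log2 change of 1.12 ± 0.19, adjusted p = 2.5e-06). PIL5 had 238, 224 and 227 CPM in water and 68.6, 58.7 and 69.4 dry (a log2 change of 1.81 ± 0.13, adjusted p = 6.8e-15). So in WT the transcripts of 4 DELLA genes, of SLY1, of PIL5 and, at few counts, of GID1B rose. Those of RGL3 and of the 2 more abundant receptors fell. Scaling to the total count, in place of trimmed means, moved the median over all loci to 0.83, against 0.08, and the share of calls that were higher to 82.5%, against 52.6%. Every WT member kept its direction and call under that scaling, with GID1A at -0.67 and GID1C at -0.60.

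Salmon split the PIL5 counts over several transcripts. AT2G20180.2 held 48.9% ± 3.30 of the PIL5 counts in water-imbibed WT seeds and 67.8% ± 15.9 in dry ones (SD, n = 3 each), and this difference was not tested. Overlapping transcripts of 1 gene share most of their reads, so these shares are less certain than the sum.

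Seeds labelled cyp, myb and qko showed the same directions as WT in all 10 genes on imbibition, except RGL3 in cyp with total-count scaling. All 10 were called in cyp and in myb, and 9 in qko. Over all loci the background was 79.7% of loci called, 40.8% higher and 38.9% lower, in cyp, 66.2% of loci called, 34.8% higher and 31.3% lower, in myb, and 69.0% of loci called, 36.9% higher and 32.2% lower, in qko. SLY1 was not called in qko, with 20.3, 22.1 and 30.2 CPM in water and 20.9, 18.1 and 20.8 dry (a log2 change of 0.28 ± 0.18, adjusted p = 0.15). The sizes varied for RGA1: the log2 fold change was 3.79 ± 0.09 in cyp, 2.06 ± 0.10 in myb, 1.46 ± 0.08 in qko and 3.43 ± 0.09 in WT (SE). For GAI it was 2.14 ± 0.11 in cyp, 0.99 ± 0.13 in myb, 0.41 ± 0.11 in qko and 1.49 ± 0.11 in WT. RGL3 fell least in cyp (-0.34 ± 0.15) and most in qko (-2.69 ± 0.16), with -1.87 ± 0.17 in myb and -1.38 ± 0.16 in WT. RGL2, by contrast, gave 3.42 ± 0.11, 3.03 ± 0.14 and 2.88 ± 0.12 in cyp, myb and qko, and 3.05 ± 0.12 in WT. PIL5 gave 1.93 ± 0.13, 1.61 ± 0.15 and 1.65 ± 0.13 in cyp, myb and qko, and 1.81 ± 0.13 in WT. For RGL1, counts gave ratios of water to dry of 36.9 (95% interval 18.6 to 85.9) in cyp, 5.29 (95% interval 2.47 to 13.5) in myb, 2.46 (95% interval 1.41 to 4.56) in qko and 30.0 in WT. For GID1B they were 8.73 (95% interval 4.29 to 20.7) in cyp, 3.28 (95% interval 1.57 to 7.92) in myb, 4.15 (95% interval 1.97 to 10.1) in qko and 3.56 in WT. The intervals of these count ratios too cover counting error only, not the spread between libraries. The fall of RGL3 in cyp is uncertain: with total-count scaling it turned to a rise of 0.40 (adjusted p = 0.022). It was not called with DESeq2 (0.069), with DESeq2 size factors (0.066), without the imbibed cyp replicate 8 libraries (0.16), without cyp dry replicate 7, 8 or 9 (0.087, 0.074 and 0.06) or without cyp water replicate 8 or 9 (0.18 and 0.059), here and below with the adjusted p in parentheses. In qko, RGL1 was not called without qko dry replicate 4 or 6 (0.11 and 0.091) or without qko water replicate 4 or 6 (0.072 and 0.077). In myb, RGL1 was not called without myb dry replicate 9 (0.088), and SLY1 was not called without myb dry replicate 9 (0.10). Total-count scaling gave 72.6%, 81.2% and 81.8% of calls higher in cyp, myb and qko, against 51.2%, 52.6% and 53.4% with trimmed means, and SLY1 was then called in qko (1.01, adjusted p = 4.7e-06).

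**Figure D2:**
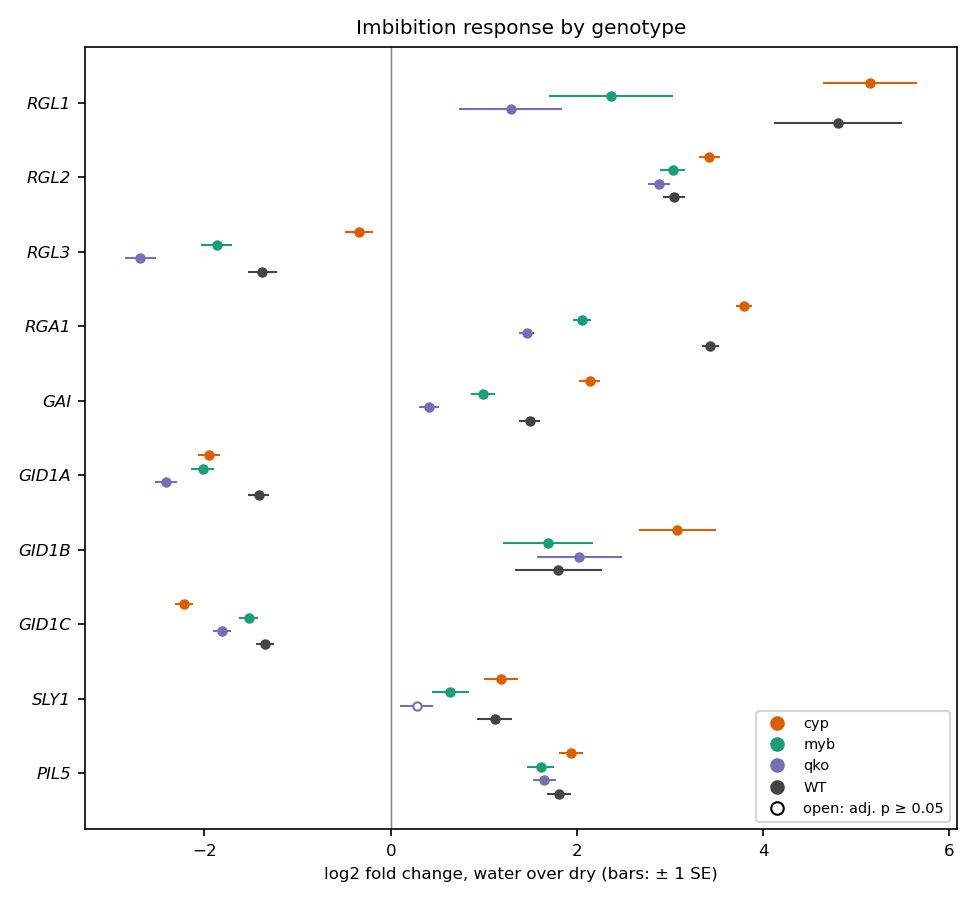
Log2 fold change of each gene in water-imbibed over dry seeds (x axis; bars are ± 1 SE from the edgeR fit) for the 4 labelled genotypes; open points did not pass an adjusted p of 0.05. RGA1, GAI and RGL3 spread widely between genotypes, while RGL2 and PIL5 lie close together, and the wide bars of RGL1 and GID1B come from dry libraries with few counts.

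Whether the imbibition response differed from that of WT was tested as an interaction. In cyp, 5 of 10 members differed (background 35.2% of loci called, 12.3% higher and 22.8% lower): GAI (0.64 ± 0.15), RGA1 (0.36 ± 0.12) and RGL3 (1.04 ± 0.21) had a more positive response, and GID1A (-0.53 ± 0.16) and GID1C (-0.87 ± 0.14) a more negative one. In myb, RGA1 (-1.38 ± 0.13), GID1A (-0.60 ± 0.16) and GAI (-0.50 ± 0.16) had a more negative response, 3 of 10 (background 11.5% of loci called, 5.39% higher and 6.14% lower). In qko it was 7 of 10 (background 27.7% of loci called, 14.1% higher and 13.6% lower), all more negative: RGA1 (-1.97 ± 0.12), RGL3 (-1.31 ± 0.22), GAI (-1.08 ± 0.16), GID1A (-0.99 ± 0.16), SLY1 (-0.84 ± 0.26), GID1C (-0.46 ± 0.14) and RGL1 (-3.51), whose size is uncertain because dry WT libraries held 1 count each. RGL2, PIL5 and GID1B passed in none of the 3, with adjusted p for RGL2 of 0.057 in cyp, 0.98 in myb and 0.48 in qko. In myb, RGL3 was called in a fit of these groups alone (0.017). In cyp RGL2 lay near the threshold, since it was called with DESeq2 (0.015), with DESeq2 size factors (0.023), in a fit of these groups alone (0.023), without WT dry replicate 8 (0.011) or without WT water replicate 8 (0.044). In myb, GAI was not called with the replicate number as a block (0.36), without WT dry replicate 8 or 9 (0.089 and 0.052), without WT water replicate 5 or 8 (0.074 and 0.073), without myb dry replicate 5 (0.36) or without myb water replicate 6 or 7 (0.089 and 0.078), and in cyp, RGA1 was not called with no filter on low counts (0.061), without WT dry replicate 9 (0.097), without WT water replicate 9 (0.055) or without cyp dry replicate 9 (0.054). With total-count scaling the share of higher calls in the myb interaction was 34.5%, against 46.7%.

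Summed per kilobase, the 5 DELLA genes amounted to 299 ± 14.3 CPM per kb in water-imbibed seeds labelled cyp, 134 ± 4.18 in myb, 103 ± 11.8 in qko and 126 ± 6.84 in WT (SD, n = 3 each). Dry seeds had 79.4 ± 1.58, 80.1 ± 8.23 and 83.7 ± 0.924 in cyp, myb and qko, and 68.1 ± 4.78 in WT. The 3 receptor genes summed to 28.6 ± 1.90, 48.7 ± 1.11 and 43.7 ± 3.86 CPM per kb in water-imbibed cyp, myb and qko, and 45.8 ± 2.10 in WT. Receptor sums in dry seeds were 112 ± 4.85, 186 ± 1.93 and 217 ± 3.73 in cyp, myb and qko, and 121 ± 12.9 in WT. The ratio of the DELLA sum to the receptor sum, which does not depend on library scaling, was 11.5, 9.30 and 10.7 in the water-imbibed cyp libraries, 2.70, 2.81 and 2.77 in myb, 2.10, 2.66 and 2.37 in qko and 2.93, 2.91 and 2.45 in WT. In dry libraries it was 0.738, 0.688 and 0.696 in cyp, 0.458 and 0.402 in myb, 0.384, 0.392 and 0.384 in qko and 0.617, 0.464 and 0.630 in WT. Receptor levels thus exceeded DELLA levels in every dry library, and DELLA levels exceeded receptor levels in every imbibed one. In KNO3 the ratio averaged 9.07 ± 2.10 in cyp, 2.56 ± 0.112 in myb, 2.70 ± 0.261 in qko and 2.76 ± 0.198 in WT, and in KSCN 9.71 ± 1.75 in cyp, 2.47 ± 0.0563 in myb, 2.10 ± 0.376 in qko and 2.64 ± 0.332 in WT (SD, n = 3 or 2). All imbibed cyp libraries had a ratio above all imbibed libraries of the other genotypes. These sums describe the chosen genes and carry no test.

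**Figure D3:**
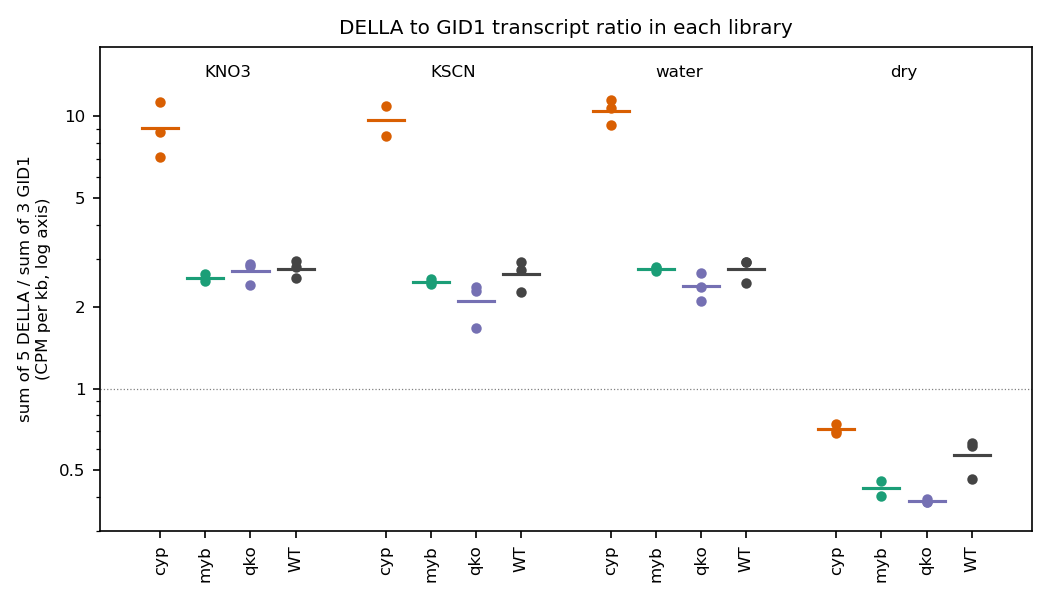
Ratio of summed DELLA to summed GID1 transcript levels (CPM per kb, log axis) in each library by treatment and labelled genotype, with group means as lines and a dotted line at a ratio of 1. Dry libraries lie below 1 and imbibed ones above it, and the imbibed cyp libraries lie highest.

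The make-up of the DELLA transcripts differed between imbibed and dry seeds. RGL3 made up 12.7% ± 1.15 of the DELLA sum in water-imbibed cyp seeds, 9.98% ± 0.499 in myb, 7.66% ± 0.420 in qko and 14.6% ± 0.685 in WT (SD). In dry seeds its share was 60.6% ± 1.02 in cyp, 61.3% ± 1.75 in myb, 60.8% ± 2.73 in qko and 70.6% ± 0.555 in WT. RGL2 held 40.2% ± 0.715 in water-imbibed cyp, 41.1% ± 1.27 in myb, 39.9% ± 1.98 in qko and 28.5% ± 0.973 in WT. Dry seeds had 14.1% ± 0.267 in cyp, 8.46% ± 0.275 in myb, 6.73% ± 0.829 in qko and 6.36% ± 0.665 in WT. RGL3 was thus the leading DELLA transcript in dry seeds of all 4 genotypes. RGL2 was the leading one in water-imbibed cyp, myb and qko seeds, while RGL2, RGA1 (28.5% ± 1.55) and GAI (27.6% ± 0.742) held like shares in WT. GID1A made up most of the receptor sum in every group, with mean shares of 79.5% to 87.3%.

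**Figure D4:**
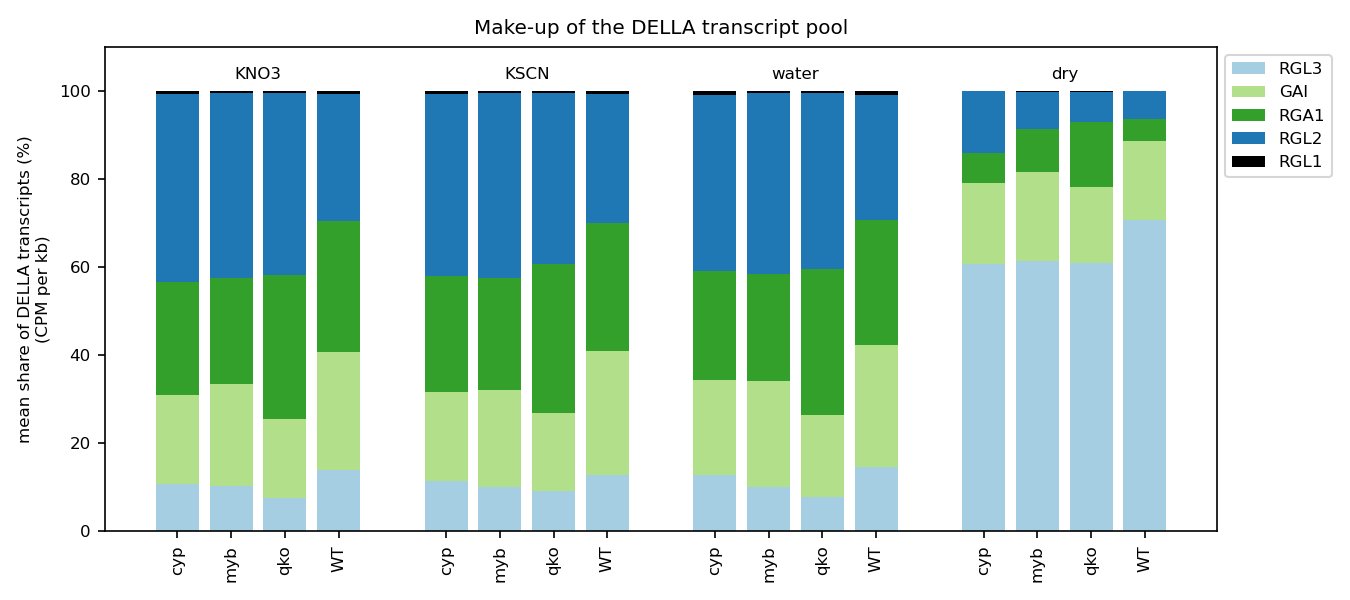
Mean share of each DELLA gene in the summed DELLA transcript level (CPM per kb) by treatment and labelled genotype. RGL3 holds the largest share in dry seeds, and RGL2, RGA1 and GAI hold most of the sum in imbibed seeds.

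Mutants were then set against WT within a treatment. In water, seeds labelled cyp had higher levels of all 5 DELLA genes, of GID1B and of PIL5, and lower levels of GID1A and GID1C, 9 of 10 members (background 63.1% of loci called, 31.2% higher and 31.9% lower). RGL2 had 295, 270.1 and 269.6 CPM in cyp and 83.5, 88.9 and 77.4 in WT (a log2 change of 1.74 ± 0.11, adjusted p = 5.4e-16). RGA1 had 171, 171 and 171 CPM in cyp and 90.0, 80.6 and 79.4 in WT (a log2 change of 1.04 ± 0.08, adjusted p = 1.9e-13). RGL3 had 96.0, 73.4 and 87.5 CPM in cyp and 43.3, 44.6 and 37.0 in WT (a log2 change of 1.04 ± 0.15, adjusted p = 4.2e-07). For these 3 and for GAI every cyp library was above every WT library. GAI had 167, 151 and 155 CPM in cyp and 85.8, 86.1 and 81.8 in WT (a log2 change of 0.90 ± 0.11, adjusted p = 6.2e-09). RGL1 had 5.07, 4.15 and 6.89 CPM in cyp and 2.07, 3.21 and 1.15 in WT (a log2 change of 1.32 ± 0.32, adjusted p = 0.00055). GID1A had 43.1, 47.6 and 41.8 CPM in cyp and 71.0, 70.2 and 77.6 in WT (a log2 change of -0.72 ± 0.11, adjusted p = 8.6e-07). That receptor and GID1C, with 8.09, 9.81 and 9.30 CPM in cyp and 13.3, 13.8 and 13.5 in WT (a log2 change of -0.58 ± 0.10, adjusted p = 5.2e-06), were lower in every cyp library. PIL5 had 319, 340.1 and 266 CPM in cyp and 238, 224 and 227 in WT (a log2 change of 0.42 ± 0.12, adjusted p = 0.0028). GID1B had 1.06, 1.24 and 1.52 CPM in cyp and 0.498, 0.863 and 0.680 in WT (a log2 change of 0.90 ± 0.30, adjusted p = 0.0094). GID1B was not called without WT water replicate 5 (0.063) or without cyp water replicate 9 (0.052). SLY1 did not pass, with 21.3, 21.9 and 21.9 CPM in cyp and 19.2, 21.7 and 19.8 in WT (95% interval of the log2 fold change -0.24 to 0.45), but it was called with total-count scaling (0.016). That scaling made 72.5% of all calls higher in cyp, against 49.4%, with a median over all loci of 0.36.

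Marker lists moved with this comparison: 9 of 9 storage and oil body genes were lower in cyp, 3 of 3 tested leaf genes were higher and 0 lower, and of 3 tested seed coat genes 0 were higher and 2 lower. The 9 storage and oil body genes summed to 13309 to 20910 CPM in water-imbibed cyp seeds and 96714 to 99701 in WT, with 118210 to 126210 in dry cyp seeds and 287340 to 324720 in dry WT. The leaf list (RBCS1A, PSAD1, PSBR and LHCB1.1) summed to 99.1 to 150.3 CPM in water-imbibed cyp and 21.9 to 28.0 in WT, and the seed coat list to 7.26 to 8.47 in cyp and 7.84 to 9.48 in WT. The storage sum in water was 55257 to 60709 CPM in myb and 41936 to 52757 in qko, and in dry seeds 214620 to 231120 in myb and 206940 to 234820 in qko. The seed coat sum in water was 10.1 to 10.8 CPM in myb and 14.7 to 17.9 in qko, and the leaf sum 17.7 to 22.6 in myb and 13.4 to 26.2 in qko. The part of these lists in the results for the members was not tested.

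In dry seeds labelled cyp, 3 members were higher than in WT and none was lower (background 29.4% of loci called, 16.1% higher and 13.4% lower). RGL2 had 26.5, 25.9 and 25.4 CPM in cyp and 11.7, 8.24 and 10.3 in WT (a log2 change of 1.36 ± 0.12, adjusted p = 8.6e-11), and RGA1 had 12.6, 12.6 and 11.7 in cyp and 7.44, 7.10 and 8.60 in WT (a log2 change of 0.68 ± 0.09, adjusted p = 1.2e-06). GID1C had 40.6, 41.6 and 44.7 CPM in cyp and 34.6, 34.1 and 34.9 in WT (a log2 change of 0.29 ± 0.09, adjusted p = 0.016), the opposite direction to that in water. RGL2 and RGA1 were thus higher before imbibition too. RGL3 had 111, 109 and 106 CPM in cyp and 114, 101 and 110.2 in WT, a log2 difference with a 95% interval of -0.31 to 0.31. GID1C was not called without cyp dry replicate 9 (0.066). Scaling mattered in this comparison, since total-count scaling made 93.9% of calls higher, against 54.6%, and moved the median over all loci to 0.41: with it GAI (0.63), PIL5 (0.68) and RGL3 (0.38) were called higher. In a fit of these groups alone, GAI (0.25, adjusted p = 0.012) and PIL5 (0.30, 0.0017) were called higher and GID1A (-0.19, 0.042) lower. In KNO3 and in KSCN all members but SLY1 were called in cyp, with GID1A and GID1C lower (GID1C not with total-count scaling) and the other 7 higher. In KNO3, SLY1 was called with total-count scaling (0.01), and in KSCN, SLY1 was called in a fit of these groups alone (0.019) or with total-count scaling (0.0038). The background was 58.7% of loci called, 28.4% higher and 30.3% lower, in KNO3 and 58.5% of loci called, 28.7% higher and 29.8% lower, in KSCN. RGL2 had 272, 276 and 277 CPM in KNO3 and 286 and 278 in KSCN in cyp, and 87.3, 68.3 and 86.8 in KNO3 and 89.0, 83.2 and 75.4 in KSCN in WT. In KNO3, GID1C was not called in a fit of these groups alone (0.12), with total-count scaling (0.68), without WT KNO3 replicate 6 (0.10) or without cyp KNO3 replicate 6 or 7 (0.099 and 0.081). GID1B was not called with DESeq2 (0.063), with no filter on low counts (0.067), in a fit of these groups alone (0.12), without the imbibed cyp replicate 8 libraries (0.11), without WT KNO3 replicate 5 or 6 (0.13 and 0.10) or without cyp KNO3 replicate 6 or 8 (0.28 and 0.098). RGL1 was not called in a fit of these groups alone (0.10), without WT KNO3 replicate 6 (0.13) or without cyp KNO3 replicate 6 (0.10). GID1A was not called with total-count scaling (0.082). In KSCN, GID1C was not called with total-count scaling (0.91). Total-count scaling gave 71.8% and 74.0% of calls higher in KNO3 and KSCN, against 48.4% and 49.0%, and GID1C then had log2 fold changes of 0.044 and 0.015.

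Dry seeds labelled myb had higher levels of 6 members (GAI, RGA1, RGL2, SLY1, GID1A and GID1C) and a lower level of PIL5 than dry WT seeds (background 38.0% of loci called, 20.6% higher and 17.3% lower). RGA1 had 19.8 and 16.9 CPM in myb and 7.44, 7.10 and 8.60 in WT (a log2 change of 1.25 ± 0.10, adjusted p = 3.9e-12). GID1A had 310.0 and 308 CPM in myb and 187, 223 and 175 in WT (a log2 change of 0.66 ± 0.12, adjusted p = 3.5e-05). SLY1 had 18.7 and 15.6 CPM in myb and 9.51, 8.10 and 10.3 in WT (a log2 change of 0.88 ± 0.21, adjusted p = 0.001). The groups did not overlap for any of these 3. RGL2 had 16.4 and 14.9 CPM in myb and 11.7, 8.24 and 10.3 in WT (a log2 change of 0.64 ± 0.13, adjusted p = 0.00022), and PIL5 had 47.3 and 51.2 in myb and 68.6, 58.7 and 69.4 in WT (a log2 change of -0.41 ± 0.14, adjusted p = 0.02). After imbibition in water, 3 members were called (background 35.6% of loci called, 17.9% higher and 17.7% lower), and RGA1, GID1A and SLY1 were not among them. RGL2 was higher in myb, with 127, 128 and 127 CPM against 83.5, 88.9 and 77.4 in WT (a log2 change of 0.62 ± 0.10, adjusted p = 1.2e-05). PIL5 was lower, with 140.4, 151 and 159 CPM in myb and 238, 224 and 227 in WT (a log2 change of -0.61 ± 0.12, adjusted p = 0.00014), and so was RGL3 (28.0, 30.0 and 32.9 CPM in myb and 43.3, 44.6 and 37.0 in WT, a log2 change of -0.46 ± 0.15, adjusted p = 0.019). RGL2 was higher and PIL5 lower in myb in all 4 treatments. In dry seeds, PIL5 was not called with total-count scaling (0.12), without WT dry replicate 5 or 9 (0.057 and 0.063) or without myb dry replicate 5 or 9 (0.15 and 0.053), and GAI was not called without myb dry replicate 5 (0.38). In water, RGL3 was not called with total-count scaling (0.058), without WT water replicate 5 or 8 (0.062 and 0.07) or without myb water replicate 6 or 7 (0.082 and 0.055). Of those not called in water, SLY1 was called in a fit of these groups alone (0.026), with total-count scaling (0.036) or without myb water replicate 9 (0.019), GID1C was called with the replicate number as a block (0.042) or with total-count scaling (0.013), and RGL1 was called without WT water replicate 9 (0.018) or without myb water replicate 9 (0.03). The interaction of SLY1 in myb, the difference between its water and dry changes, was not called (adjusted p = 0.28).

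In KNO3, RGL2 (0.65) and GID1C (0.39) were higher and PIL5 (-0.90, log2 fold changes) lower in myb than in WT (background 26.7% of loci called, 14.5% higher and 12.3% lower). In KSCN, RGL2 (0.58) and GID1C (0.35) were higher, and PIL5 (-0.54) and GAI (-0.28) lower (background 30.5% of loci called, 16.6% higher and 13.9% lower). In KSCN, GAI was not called with no filter on low counts (0.052), with the replicate number as a block (0.091), with total-count scaling (0.12), without WT KSCN replicate 5 or 6 (0.092 and 0.13) or without myb KSCN replicate 7, 8 or 9 (0.10, 0.061 and 0.10), and in KNO3, GID1C was not called without myb KNO3 replicate 6 (0.097). In KNO3, SLY1 was called in a fit of these groups alone (0.021), with the replicate number as a block (0.023) or with total-count scaling (0.036), GID1B was called with total-count scaling (0.044), and RGL3 was called without WT KNO3 replicate 6 (0.017). In KSCN, SLY1 was called in a fit of these groups alone (0.0093), and RGL3 was called in a fit of these groups alone (0.001). The share of calls that were higher with total-count scaling was 69.5% in dry seeds, 60.6% in water and 67.8% in KNO3, against 54.4%, 50.3% and 54.1% with trimmed means.

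Dry seeds labelled qko had higher RGA1, RGL2, SLY1, GID1A and GID1C and lower PIL5 than WT, 6 of 10 members (background 49.0% of loci called, 25.4% higher and 23.5% lower). RGA1 had 29.4, 30.1 and 27.4 CPM in qko and 7.44, 7.10 and 8.60 in WT (a log2 change of 1.91 ± 0.09, adjusted p = 9.2e-19). GID1A had 367, 359 and 359 CPM in qko and 187, 223 and 175 in WT (a log2 change of 0.89 ± 0.11, adjusted p = 1.9e-08). GID1C had 52.5, 46.8 and 52.4 CPM in qko and 34.6, 34.1 and 34.9 in WT (a log2 change of 0.55 ± 0.09, adjusted p = 7.6e-06), and SLY1 had 20.9, 18.1 and 20.8 in qko and 9.51, 8.10 and 10.3 in WT (a log2 change of 1.09 ± 0.19, adjusted p = 1.1e-05). Each of these 4 was higher in every dry qko library. PIL5 had 51.2, 56.0 and 51.1 CPM in qko and 68.6, 58.7 and 69.4 in WT (a log2 change of -0.31 ± 0.13, adjusted p = 0.037). RGL2 had 13.1, 11.5 and 14.6 CPM in qko and 11.7, 8.24 and 10.3 in WT (a log2 change of 0.37 ± 0.12, adjusted p = 0.011), and its groups overlapped. PIL5 was not called with the replicate number as a block (0.14), without WT dry replicate 5 or 9 (0.11 and 0.12) or without qko dry replicate 4 or 7 (0.098 and 0.10). RGL2 was not called without WT dry replicate 8 (0.12) or without qko dry replicate 7 (0.078). Of those not called, GAI was called in a fit of these groups alone (0.045) or without qko dry replicate 6 (0.027), and RGL1 was called with DESeq2 (0.031).

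After imbibition in water, no member was higher in qko and 4 were lower (background 50.7% of loci called, 25.8% higher and 24.9% lower). RGL3 had 18.1, 19.0 and 16.3 CPM in qko and 43.3, 44.6 and 37.0 in WT (a log2 change of -1.22 ± 0.16, adjusted p = 6.2e-08). GAI had 42.2, 54.3 and 44.3 CPM in qko and 85.8, 86.1 and 81.8 in WT (a log2 change of -0.85 ± 0.11, adjusted p = 3.9e-08). PIL5 had 162, 165 and 170.1 CPM in qko and 238, 224 and 227 in WT (a log2 change of -0.47 ± 0.12, adjusted p = 0.0015). All 3 were lower in every qko library, as was RGL1 (0.986, 1.0 and 0.759 CPM in qko and 2.07, 3.21 and 1.15 in WT, a log2 change of -1.22 ± 0.38, adjusted p = 0.0075). RGA1 had 77.3, 85.9 and 76.1 CPM in qko and 90.0, 80.6 and 79.4 in WT (95% interval of the log2 fold change -0.22 to 0.10). In KNO3, RGL2 (0.44), SLY1 (0.54) and GID1C (0.29) were higher and GAI (-0.62), RGL3 (-0.95) and PIL5 (-0.86) lower (background 49.5% of loci called, 25.2% higher and 24.4% lower). In KSCN, GID1C (0.31) was higher and GAI (-0.94), RGL3 (-0.78) and PIL5 (-0.39, log2 fold changes) lower (background 52.6% of loci called, 27.0% higher and 25.6% lower). GAI, RGL3 and PIL5 were thus lower in qko in all 3 imbibed treatments. SLY1 rested on the library that stood apart: 21.2, 21.8 and 37.9 CPM in qko in KNO3 and 18.6, 17.2 and 19.9 in WT. SLY1 was not called in a fit of these groups alone (0.11), without the 3 imbibed qko replicate 7 libraries (0.11) or without qko KNO3 replicate 7 (0.29). GID1C was not called in a fit of these groups alone (0.15), without the 3 imbibed qko replicate 7 libraries (0.063), without WT KNO3 replicate 5 or 8 (0.069 and 0.055) or without qko KNO3 replicate 4 or 7 (0.053 and 0.07). In KSCN, GID1C was not called in a fit of these groups alone (0.065), without WT KSCN replicate 6 (0.065) or without qko KSCN replicate 4 (0.074). In water, RGL1 was not called with the replicate number as a block (0.073) or without WT water replicate 8 (0.11). RGL2 in water was not called (adjusted p = 0.095), but it was called without the 3 imbibed qko replicate 7 libraries (0.012) or without qko water replicate 7 (0.019). In KNO3, RGL1 was called without WT KNO3 replicate 6 (0.016).

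**Figure D5:**
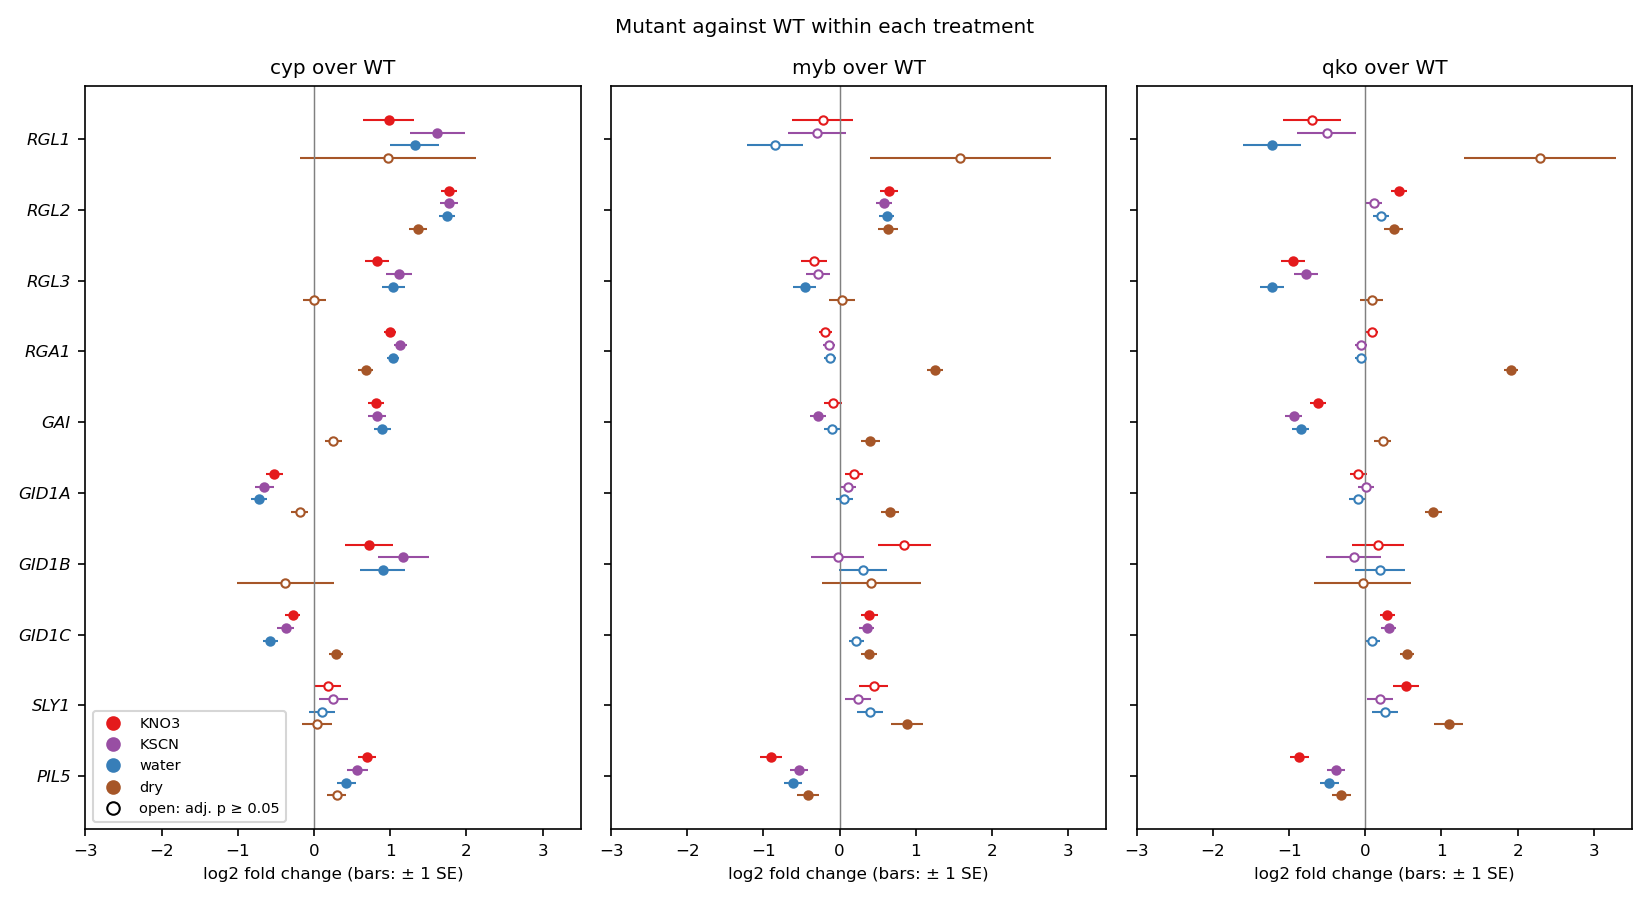
Log2 fold change of each gene over WT (x axis; bars are ± 1 SE from the edgeR fit) in seeds labelled cyp, myb and qko, one panel each, by treatment; open points did not pass an adjusted p of 0.05. In cyp the DELLA genes lie to the right and GID1A and GID1C to the left in the imbibed treatments, though not GID1C in KNO3 and KSCN with total-count scaling. In myb and qko the dry RGA1 and GID1A points lie apart from the imbibed ones.

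The series was set up to ask what nitrate and thiocyanate do to imbibed seeds. Of the 10 members, none was called by edgeR for KNO3 against water in myb, qko or WT, or for KSCN against water in any genotype. No locus of the 18066 was called in these 7 comparisons by the model of all libraries (background 0%), with 173 to 2270 loci at an unadjusted p under 0.05 and 0 to 3 called by DESeq2. A fit of only the groups compared called 189 loci for KSCN against water in myb (17 of them higher) and 1 for KNO3 in WT. With the replicate number as a block or with total-count scaling, at most 2 loci were called in any of the 7. No member was among the calls of these settings. At an unadjusted p under 0.05 there was 1 member in all 7, GID1C for KNO3 in WT (11, 12.7 and 11.3 CPM in KNO3 and 13.3, 13.8 and 13.5 in water), and DESeq2 called no member. RGL2 had 87.3, 68.3 and 86.8 CPM in KNO3 in WT and 83.5, 88.9 and 77.4 in water, with a 95% interval of the log2 fold change of -0.25 to 0.17, and -0.22 to 0.20 for KSCN over water. For PIL5 the intervals in WT were -0.04 to 0.45 for KNO3 and -0.28 to 0.21 for KSCN. In seeds labelled cyp, PIL5 was called higher in KNO3 (background 1.98% of loci called, 1.14% higher and 0.841% lower), with 315, 429 and 541 CPM in KNO3 and 319, 340.1 and 266 in water (a log2 change of 0.47 ± 0.12, adjusted p = 0.03). The groups overlapped, and it was not called in a fit of these groups alone (0.54), with total-count scaling (0.066), without the imbibed cyp replicate 8 libraries (0.27), without cyp KNO3 replicate 7 or 8 (0.12 and 0.69) or without cyp water replicate 7 or 9 (0.11 and 0.32). Over all loci the calls numbered 358, with 2284 under the replicate block, 173 without the imbibed cyp replicate 8 libraries and 0 in a fit of these groups alone. RGL3 in cyp had 80.0, 69.8 and 51.1 CPM in KNO3 and 96.0, 73.4 and 87.5 in water and did not pass (adjusted p = 0.23), but it was called with the replicate number as a block (0.033) or without cyp KNO3 replicate 6 (0.035). No difference between a mutant and WT in the response to KNO3 or KSCN was called for a member or for any locus by edgeR in the model of all libraries (background 0%). For KNO3 in cyp, 150 loci were called with the replicate number as a block and 2 without the imbibed cyp replicate 8 libraries, with no member among them. Of these 6 comparisons, 2 had 1 member each at an unadjusted p under 0.05, GID1C for KNO3 in cyp and PIL5 for KNO3 in qko. Over all loci there were 205 to 1059 at that level, and DESeq2 called 0 or 1 locus and no member.

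3 other lists of the pathway give the context of the members. They hold 18 other gibberellin signalling components (17 tested), 11 other PIFs and phytochromes (10 tested) and 12 seed genes known to lie downstream of PIL5 and DELLA proteins (12 tested). TCP15 and HFR1 had too few counts. On imbibition of WT in water, 7 of 17 signalling components were higher and 7 lower, 2 of 10 PIFs and phytochromes higher and 4 lower and 6 of 12 downstream genes higher and 4 lower (median log2 fold changes 0.20, -0.25 and 0.48, against 0.08 over all loci). The background was 37.1% of loci higher and 33.5% lower. IDD1, a zinc finger factor that promotes gibberellin effects in seeds, had 174 ± 11.1 CPM in water and 685 ± 20.9 dry (a log2 change of -1.98 ± 0.09, adjusted p = 1.7e-19). NF-YC4, a partner of RGL2, had 2.95 ± 0.164 CPM in water and 0.742 ± 0.0399 dry (a log2 change of 1.98 ± 0.23, adjusted p = 1.3e-09), and MGP had 2.02 ± 0.278 CPM in water and 0.671 ± 0.154 dry. PIL2, another PIF gene, had 32.1 ± 2.50 CPM in water and 124 ± 8.55 dry (a log2 change of -1.95 ± 0.15, adjusted p = 1.2e-13), PIL6 had 2.74 ± 0.134 in water and 10.6 ± 1.36 dry, and PIF4 had 3.86 ± 1.65 in water and 1.17 ± 0.246 dry. The genes of GA3OX1 and GA3OX2, the enzymes of the last step to active gibberellin, rose, with almost no counts in dry seeds: 7.14 ± 1.25 and 6.59 ± 2.30 CPM in water, with 1 count and 0 counts over the 3 dry WT libraries. GASA6, a gibberellin-induced gene of germination, had 6.92 ± 2.61 CPM in water and 4 counts over the dry libraries.

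In water-imbibed cyp seeds against WT, 5 of 17 signalling components were higher and 4 lower, 3 of 10 PIFs and phytochromes higher and 5 lower and 6 of 12 downstream genes higher and 3 lower (medians -0.02, -0.30 and 0.57, against 0.00 over all loci). The background was 31.2% of loci higher and 31.9% lower. GASA6 had 95.4 ± 37.9 CPM in cyp and 6.92 ± 2.61 in WT (a log2 change of 3.78 ± 0.50, adjusted p = 1.0e-07). GA3OX2 had 53.9 ± 5.86 CPM in cyp and 6.59 ± 2.30 in WT (a log2 change of 3.03 ± 0.38, adjusted p = 3.9e-08), and ABI5, a bZIP factor of abscisic acid signalling, had 121 ± 2.06 in cyp and 328 ± 31.5 in WT (a log2 change of -1.45 ± 0.11, adjusted p = 5.1e-13). So the DELLA transcripts, the gibberellin synthesis gene GA3OX2 and the gibberellin-induced gene GASA6 were all higher in the same cyp libraries. Of the PIFs and phytochromes, PIF4 (2.25) was higher and the phytochrome gene PHYD (-2.04) and PIL2 (-1.47) lower. Of the signalling components, IDD1 (-1.66) was lower and IDD2 (1.05) and NF-YC4 (0.97, log2 fold changes) higher. In KNO3 against water in cyp, GA3OX1 was higher (36.4 ± 7.28 CPM in KNO3 and 18.8 ± 2.45 in water, adjusted p = 0.0047) and SOM, a zinc finger gene that PIL5 activates, lower (222 ± 36.7 CPM in KNO3 and 291 ± 12.1 in water, adjusted p = 0.044), with no call in the other lists. GA3OX1 was not called in a fit of these groups alone (0.54), without cyp KNO3 replicate 7 (0.081) or without cyp water replicate 9 (0.086). SOM was not called with no filter on low counts (0.067), in a fit of these groups alone (0.54), without the imbibed cyp replicate 8 libraries (0.54), without cyp KNO3 replicate 7 or 8 (0.089 and 0.63) or without cyp water replicate 7, 8 or 9 (0.18, 0.063 and 0.12).

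The imbibed myb and qko seeds went the other way for the synthesis genes. In water, GA3OX2 had 1.43 ± 0.817 CPM in myb, 0.327 ± 0.171 in qko and 6.59 ± 2.30 in WT (log2 fold changes -2.19 and -4.30, adjusted p = 0.00035 and 4.8e-07). GA3OX1 had 2.03 ± 0.793 CPM in myb, 0.628 ± 0.225 in qko and 7.14 ± 1.25 in WT (log2 fold changes -1.81 and -3.49, adjusted p = 2.8e-07 and 4.5e-12). GASA6 was lower in qko (1.60 ± 0.543 CPM in qko and 6.92 ± 2.61 in WT, log2 change -2.11), and the DOF factor gene DAG1 was lower in myb (2.42 ± 0.284 CPM in myb and 4.51 ± 0.648 in WT, log2 change -0.89). In myb, 6 of 17 signalling components were higher and 5 lower, 2 of 10 PIFs and phytochromes higher and 3 lower and 1 of 12 downstream genes higher and 3 lower. In qko, the counts were 7 higher and 4 lower of 17, 4 and 3 of 10, and 1 and 4 of 12. The background was 17.9% of loci higher and 17.7% lower in myb, and 25.8% higher and 24.9% lower in qko. SNE, a relative of SLY1, was higher in myb (1.70 ± 0.522 CPM in myb and 0.193 ± 0.0939 in WT, log2 change 3.09), and MGP was lower in both (log2 changes -1.47 in myb and -0.90 in qko). MYB101, a GAMYB-like gene, was higher in both (log2 changes 1.21 in myb and 1.14 in qko), as was PIF4 (2.16 in myb and 1.52 in qko). PIL6 was lower in both (-1.40 in myb and -1.5 in qko). MYB65 (0.97) and PIF7 (1.25) were higher in qko, and the phytochrome gene PHYE (-0.87) was lower in myb.

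In dry seeds against WT, the signalling list had 1 higher and 1 lower in cyp, 7 and 2 in myb, and 9 and 3 in qko, of 17. For PIFs and phytochromes, 3 were higher and 5 lower in cyp, 2 and 4 in myb, and 2 and 5 in qko, of 10. The downstream list had 1 and 1, 2 and 1, and 1 and 1 of 12 in cyp, myb and qko. The background was 16.1% of loci higher and 13.4% lower in cyp, 20.6% and 17.3% in myb, and 25.4% and 23.5% in qko. IDD2, a zinc finger partner of DELLA proteins, was higher in all 3, with 1.87 ± 0.473 CPM in cyp, 4.23 ± 0.826 in myb, 4.81 ± 0.533 in qko and 1.03 ± 0.410 in WT. PIF4 was higher in all 3 too (5.01 ± 0.623, 5.48 ± 1.0 and 3.41 ± 0.446 CPM in cyp, myb and qko, and 1.17 ± 0.246 in WT), and PIF7 was lower (6.13 ± 0.629, 3.41 ± 0.0503 and 4.18 ± 0.0864 CPM in cyp, myb and qko, and 12.3 ± 1.37 in WT). SOM was higher in myb and qko (1604 ± 174 CPM in myb, 2324 ± 112 in qko and 1208 ± 69.4 in WT), and ABI3, a regulator of seed maturation, was lower (190.1 ± 27.5 CPM in myb, 195 ± 10.1 in qko and 266 ± 15.9 in WT). DELLA-binding BOI was higher in qko (526 ± 9.51 CPM in qko and 192 ± 19.5 in WT), and MYB101 was higher in myb and qko (1.31 and 1.44, log2 fold changes). TCP14 (-1.14) and PIL2 (-1.33) were lower in myb, PHYE (-1.31) was lower in qko, and JMJ20, a histone demethylase gene, was higher in cyp (0.60) and myb (0.42). The smaller dry cyp changes of NF-YC3 (-0.33), DAG1 (-0.60) and PIL6 (0.69) were called as well. Of the dry cyp calls, PIL6 was not called without WT dry replicate 8 (0.08), IDD2 was not called without WT dry replicate 5 or 9 (0.15 and 0.10) or without cyp dry replicate 8 or 9 (0.10 and 0.092), and DAG1 was not called with no filter on low counts (0.074), with the replicate number as a block (0.053), with total-count scaling (0.42), without WT dry replicate 5 or 9 (0.23 and 0.085) or without cyp dry replicate 7 or 9 (0.14 and 0.11). NF-YC3 turned to 0.049 with total-count scaling (adjusted p = 0.68). Of the dry myb calls, ABI3 was not called without myb dry replicate 9 (0.15), JMJ20 was not called without myb dry replicate 9 (0.055), and SOM was not called without myb dry replicate 5 (0.14).

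Among 12153 loci with a mean of at least 5 CPM, those whose pattern over the 16 group means was most like a member were named by Pearson correlation of log2 CPM. For RGL2 they were AT4G39150, SOT16 (AT1G74100) and P58IPK (AT5G03160) (r 0.994 to 0.996). For RGL3 they were AT5G10540, PWD (AT5G26570) and AT2G24060 (r 0.984 to 0.990), and for GID1A AT5G66180, AT5G14120 and ETFQO (AT2G43400) (r 0.991 to 0.993). GID1C was most like AT3G14750, LEJ2 (AT4G36910) and CID12 (AT4G10610) (r 0.991 to 0.992), and PIL5 like HB1 (AT2G16060), AT2G22360 and PYL2 (AT2G26040) (r 0.981 to 0.988). RGA1 was most like AT4G28440, RALFL34 (AT5G67070) and AT1G36280 (r 0.988 to 0.990), GAI like AT3G58470, AT3G04920 and AT1G13730 (r 0.991 to 0.993) and SLY1 like RABA1c (AT5G45750), GLY3 (AT1G53580) and AT1G70770 (r 0.980 to 0.982). RGL1 and GID1B, at few counts, were most like AT1G63810, AT5G60990 and NF-YA6 (AT3G14020) (r 0.987 to 0.988) and PDIL1-1 (AT1G21750), AT4G26310 and AT2G35605 (r 0.975 to 0.975). The 16 points share the step between dry and imbibed seeds, and these correlations are descriptions.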

How the data were processed

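Paired-end sequencing with reads of 100 bases was done on RNA of entire seeds (DNBseq). The deposited table holds estimated counts per transcript for 48268 transcripts, made by the authors with Salmon per the submitters' processing notes. For Salmon the version, index, build and strand setting are not given in the sources used. Estimated counts were summed per locus and rounded (27587 loci). Groups follow the labels.

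Changes were tested with edgeR 4.0.16 (R 4.3.3) by quasi-likelihood F tests in 1 model of all 45 libraries with 16 group coefficients and trimmed-mean scaling. filterByExpr (count 10, total 15, by group) kept 18066 loci and dropped 9521. Benjamini-Hochberg adjustment ran over all loci tested within each of 33 comparisons, and a call is an adjusted p under 0.05. The SE belongs to the log2 change, and SD is the spread between libraries. Levels per kb divide CPM by the longest transcript. For RGL1 and GID1B, whose dry libraries held at most 7 and 5 counts, count ratios of water to dry with exact 95% intervals replace folds. The ratios use library sizes scaled by trimmed means. The edgeR fit and test were tried on simulated counts with known changes.

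The members and lists were chosen with earlier results of these data known. The rule for named genes takes all 10 members, up to 3 called genes per list by size of change (mean of 1 CPM or more in a group), and the 3 loci most like each member; lists of genes are given for the main comparisons. Sequences, positions and names are from the TAIR10.1 reference, matched by locus. The promoter window of 1 member is not reported here. No 2 libraries of a group were identical or agreed within sampling noise (lowest mean chi-square per locus 3.84). Replicate numbers were tested as pairs: with 3 pairs, they went together only in qko between KNO3 and water (residual correlation 0.338 to 0.562) and KSCN and water (0.371 to 0.625), from the data and not the labels. Alternatives were DESeq2 1.42.0, its size factors in edgeR, total-count scaling, no filter on low counts, a fit of only the groups compared, the replicate number as a block, and leaving out libraries.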

Additional observations from a re-analysis of the deposited data

Results flagged for a closer look

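The response to imbibition (water over dry, log2) differed between a mutant and WT for 15 pairs of gene and genotype, by the interaction test of edgeR with an adjusted p under 0.05. For seeds labelled cyp the difference from WT was 0.64 for GAI, 0.36 for RGA1, 1.04 for RGL3, -0.53 for GID1A and -0.87 for GID1C. For seeds labelled myb it was -0.50 for GAI, -1.38 for RGA1 and -0.60 for GID1A. For seeds labelled qko it was -1.08 for GAI, -1.97 for RGA1, -1.31 for RGL3, -0.84 for SLY1, -0.99 for GID1A and -0.46 for GID1C. RGL1 in qko gave -3.51, a fitted value of uncertain size because dry WT libraries held 1 count each. The 3 interactions share their WT libraries. Over all loci, 35.2%, 11.5% and 27.7% were called in cyp, myb and qko. Groups of 2 or 3 libraries were too small for a test of single outlying samples.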

How the results depend on the processing

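Of 122 calls of members in 330 tests, 97 kept direction and call in every alternative that could be run, and 25 were lost or turned in at least 1. Over all loci the share called ran from 0% to 79.7% between comparisons. The share of all loci that kept a call is not given, so these counts do not set the members apart. Of 4572 repeats, 4437 kept the direction and the side of the threshold, 93 lost a call, 39 gained one and 3 turned. With total-count scaling the turned values were 0.40 for RGL3 in cyp in water over dry, and 0.044 (KNO3) and 0.015 (KSCN) for GID1C in cyp over WT. Among 62 tests of named list genes, 53 kept their call throughout, and NF-YC3 in dry cyp over WT turned to 0.049 with total-count scaling. The cause was not tested.

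The number of members called moved by over 1.5 times in 4 comparisons. With total-count scaling it was 5 for myb over WT in KNO3 (3 with trimmed means), 6 for dry cyp over WT (3) and 0 for KNO3 over water in cyp (1). Over all loci, in the same order, that scaling called 4969 (4830 with trimmed means), 9211 (5319) and 337 (358). A fit of only the groups compared gave 6 members for dry cyp over WT and 0 for KNO3 over water in cyp, with 8044 and 0 of all loci called. The members called for dry cyp over WT thus rose along with the calls over all loci. For KNO3 over water in cyp the members called were 2 with the replicate block and 0 without the imbibed cyp replicate 8 libraries, with 2284 and 173 of all loci. Leaving out 1 library gave 0 to 2 members for KNO3 over water in cyp, 2 to 5 for myb over WT in water, 4 to 7 and 5 to 7 for dry qko and myb over WT, and 6 to 9 and 4 to 7 for cyp and qko over WT in KNO3. The calls over all loci in these leave-out fits are not given, so these ranges set no member apart. Where the numbers paired libraries (KNO3 and KSCN over water in qko), the block changed no call of members. In the other comparisons libraries share at most a number. The qko and WT libraries share none in dry seeds or in water, so the block cannot pair them there. Correlations of residuals were -0.041 to 0.057 for the 3-pair comparisons of water with dry seeds. For cyp over WT they were -0.431 and -0.297 in KNO3, -0.244 and -0.219 in water, -0.025 and 0.063 in dry seeds and 0.047 and 0.164 in KSCN. With 2 shared numbers, they were 0.189 and 0.236 for KNO3 over water in WT and 0.089 and 0.496 in cyp, and with 1 shared number 0.442 for KSCN over water in cyp. The block raised the loci called for KNO3 over water in cyp to 2284, against 358 without it. Leaving out a dry myb library left 1 in that group, which is assumed to vary like the others. Depth limits RGL1 and GID1B, whose dry libraries held at most 7 and 5 counts.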
